A study of Homo sapiens with 12 samples.

Results

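Genes of the proteasome were examined in 2 human cell lines of acute myeloid leukaemia, KG-1 and MOLM-14. The members were the rows of the expression table whose symbol starts with PSM, a letter from A to G and a number. Antisense transcripts and pseudogenes with such names were left out, 7 in all. This gave 47 of the 13881 listed genes, and all 47 passed the filter on low values. The name also takes in PSMC3IP, a recombination factor that is not a proteasome component, so 46 members belong to the proteasome. Of these, 14 build the constitutive core, 17 the regulatory particle and 5 are immunoproteasome genes (PSMB8, PSMB9, PSMB10, PSME1 and PSME2). The other 10 are assembly chaperones, further activators and an inhibitor. The tissue-restricted members PSMA8 and PSMB11 had no row in the table.

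The groups were KG-1 with ASLAN003, KG-1 with the solvent DMSO, MOLM-14 with ASLAN003 and MOLM-14 with DMSO, each with 3 libraries after 96 h. ASLAN003 is an inhibitor of dihydroorotate dehydrogenase, which works in mitochondria on the way to new pyrimidines. Its dose was not stated in the labels. Both lines were kept in RPMI1640 with 10% serum, and each line stands for a single donor's leukaemia. Expression was measured by RNA sequencing of total RNA and is given in FPKM, fragments per kilobase of transcript, scaled to a fixed number of fragments per library. All 5 blood cell markers of a fixed list (PTPRC, SPI1, CD33, CD53 and LAPTM5) were present, with summed levels of 865 to 943 FPKM in KG-1 with ASLAN003 against 399 to 423 FPKM in KG-1 with DMSO. The sums were 645 to 858 FPKM in MOLM-14 with ASLAN003 and 448 to 479 FPKM in MOLM-14 with DMSO, while the T cell gene CD3D reached at most 0.22 FPKM in any library. Of the other markers listed, the fibroblast gene COL1A1 was at 7.39 to 10.7 FPKM in KG-1 with ASLAN003, 6.30 to 7.52 FPKM in KG-1 with DMSO, 0.54 to 5.01 FPKM in MOLM-14 with ASLAN003 and 0.49 to 1.39 FPKM in MOLM-14 with DMSO. The epithelial gene EPCAM was at 1.19 to 2.49 FPKM in KG-1 with ASLAN003 and 1.62 to 2.00 FPKM in KG-1 with DMSO, and was listed at 0 in MOLM-14. The part of these markers in the results was not tested.

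The proteasome degrades proteins tagged with ubiquitin. Its core is a barrel of alpha and beta subunits, in which PSMB5, PSMB6 and PSMB7 cut peptide bonds. A regulatory particle of ATPases and further subunits recognises, unfolds and feeds substrates into the barrel. In haematopoietic cells, and in others after interferon, PSMB8, PSMB9 and PSMB10 replace PSMB5, PSMB6 and PSMB7 to form the immunoproteasome, which generates many of the peptides shown on MHC class I. PSME1 and PSME2 form an activator ring that caps this barrel.

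The promoters of the 3 immunoproteasome catalytic genes and of PSMG4, an assembly chaperone, are shown first, because PSMB9 and PSMG4 had the largest changes and PSMB8 and PSMB10 are the partners of PSMB9. Each is a RefSeq window in GRCh38.p14 of 250 bases before to 50 bases after the annotated start, written 5′ to 3′ on the gene's strand. Capitals mark matches to 3 short motifs searched on both strands, the antioxidant response element core TGACNNNGC, the interferon regulatory factor (IRF) element core (GAAA, any 2 bases, GAAA) and the STAT element core TTCNNNGAA.
PSMB9, chr6:32853942-32854241, plus strand: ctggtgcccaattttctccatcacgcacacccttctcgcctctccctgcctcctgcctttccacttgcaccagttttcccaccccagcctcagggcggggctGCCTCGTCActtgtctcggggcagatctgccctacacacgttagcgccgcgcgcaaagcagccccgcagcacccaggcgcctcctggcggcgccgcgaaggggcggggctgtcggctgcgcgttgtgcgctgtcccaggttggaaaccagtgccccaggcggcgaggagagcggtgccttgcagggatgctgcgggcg
PSMB8, chr6:32843998-32844297, minus strand: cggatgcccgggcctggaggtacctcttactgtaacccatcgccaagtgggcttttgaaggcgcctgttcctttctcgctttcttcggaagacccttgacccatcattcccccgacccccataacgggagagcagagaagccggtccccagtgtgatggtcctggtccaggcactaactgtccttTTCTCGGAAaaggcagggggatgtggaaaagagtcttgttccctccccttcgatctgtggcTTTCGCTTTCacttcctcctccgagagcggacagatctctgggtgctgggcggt
PSMB10, chr16:67936801-67937100, minus strand: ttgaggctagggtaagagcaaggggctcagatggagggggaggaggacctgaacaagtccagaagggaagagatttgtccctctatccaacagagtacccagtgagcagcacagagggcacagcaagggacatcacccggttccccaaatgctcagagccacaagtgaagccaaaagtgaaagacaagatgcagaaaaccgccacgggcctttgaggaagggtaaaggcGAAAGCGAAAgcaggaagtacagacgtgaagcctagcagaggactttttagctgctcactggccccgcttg
PSMG4, chr6:3258697-3258996, plus strand: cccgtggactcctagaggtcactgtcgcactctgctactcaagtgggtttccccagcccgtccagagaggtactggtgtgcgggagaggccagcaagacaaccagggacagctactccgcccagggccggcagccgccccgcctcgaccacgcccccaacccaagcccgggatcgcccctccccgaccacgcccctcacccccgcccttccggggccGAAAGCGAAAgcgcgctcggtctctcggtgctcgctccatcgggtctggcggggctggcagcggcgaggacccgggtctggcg

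The PSMB10 and PSMG4 windows both held GAAAGCGAAA, at positions -21 to -12 and -33 to -24, counted from 0 at the start. In the windows shown, the motif matches did not overlap each other. The PSMB8 window shown held the same letters on the opposite strand (TTTCGCTTTC) at -4 to 5, and a STAT core, TTCTCGGAA, at -65 to -57. A further RefSeq window of PSMB8 (chr6:32844630-32844929, minus strand) held none of the motifs. The same IRF letters occurred in the windows of both activator genes, at 5 to 14 in PSME1 on the opposite strand and at -28 to -19 in PSME2. The PSMB9 window held neither the IRF nor the STAT core and had 1 antioxidant core, GCCTCGTCA on the opposite strand, at -148 to -140. A match describes letters only, and their absence from a window says nothing about a factor.

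RefSeq windows were matched for 41 of the 47 members, 51 windows in all. The IRF core was found in 7 of these 51 windows, from 7 members, against 3.57% of all 35116 windows. The antioxidant core was found in 15 of the 51 windows, from 15 members, against 13.3% of all windows. The STAT core was found in 7 of the 51, from 7 members, against 7.66%. Windows of a gene with several starts overlap or share their gene, so they are not independent.

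The median SD of log2(FPKM + 1) between replicates over the 47 members was 0.0902 in KG-1 with ASLAN003, 0.0746 in KG-1 with DMSO, 0.185 in MOLM-14 with ASLAN003 and 0.0962 in MOLM-14 with DMSO. MOLM-14 ASLAN003 replicate 1 stood apart from the other libraries of its group, at -36.2 on the second principal component of all genes, against -14.6 and -9.37. On this component, libraries with ASLAN003 lay below those with DMSO in both lines. It was -36.7 to -34.7 in KG-1 with ASLAN003, 38.1 to 41.8 in KG-1 with DMSO and 14.8 to 16.7 in MOLM-14 with DMSO. The treatment calls that changed without it are named with their values. Cytosolic ribosomal protein genes took 15.1% to 16.2% of all listed FPKM in KG-1 with ASLAN003 and 25.5% to 26.7% in KG-1 with DMSO. They took 22.6% to 27.8% in MOLM-14 with ASLAN003 and 33.6% to 34.3% in MOLM-14 with DMSO. FPKM is relative to the whole library, and the part of this shift in the results was examined only through other scalings.

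With ASLAN003, KG-1 cells had more PSMB9 mRNA and less mRNA of all 4 core assembly chaperones, while of the 31 subunits that build the constitutive core and the regulatory particle 1 was called higher and 3 lower. The balance of that last count depended on the scaling, with 0 higher and 7 lower after median centring. There were 6 higher and 1 lower after rescaling each library to its FPKM total without transcripts of mitochondrial DNA, ribosomal RNA, small RNAs and histones. This rescaling also evens out the total of all listed FPKM. That total was 674153 to 691773 in KG-1 with ASLAN003 and 754157 to 778674 in KG-1 with DMSO. The transcripts left out took 3.85% to 5.94% of it with ASLAN003 and 5.87% to 6.57% with DMSO. In MOLM-14 the total was 738331 to 809009 with ASLAN003 and 831135 to 845458 with DMSO. The part of the total in these calls was not tested. MOLM-14 cells also had more PSMB9 mRNA, and none of the chaperones of the core passed the test there. That PSMB9 call (limma adjusted p = 0.0377) was lost without any 1 of 11 libraries and under 6 other settings. In KG-1 the PSMG2 and PSMG3 calls were lost after the rescaling (limma adjusted p = 0.2 and 0.184). In bulk samples, fewer cells of a kind and less RNA per cell cannot be told apart. The labels call the libraries of a group triplicates without naming separate cultures, so the p-values rest on library-to-library spread alone, and that spread may be technical. In KG-1, 2 of the 47 members were called higher and 8 lower by limma (adjusted p under 0.05, Benjamini-Hochberg over 13353 genes), 21.3% of the members, against 33.7% of all genes tested (19.4% higher, 14.3% lower). In MOLM-14, 2 were called higher and 1 lower, 6.38% of the members, against 13.0% of all genes (9.69% higher, 3.33% lower). No test compared these shares, and after median centring they were 34% of the members and 34.9% of all genes in KG-1. Groups did not overlap for 24 members in KG-1, 8 above and 16 below, against 55.9% of all genes (31.4% above, 24.5% below), and for 9 members in MOLM-14, 5 above and 4 below, against 25.9% (17.7% above, 8.17% below).

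The median log2 change of the 47 members was -0.05 in KG-1 and -0.06 in MOLM-14, beside 0.05 and 0.08 over all genes tested. The single gene called in both lines was PSMB9. The lines share no libraries, and over the 46 proteasome genes their log2 changes had a Pearson r of 0.53, with 29 genes of the same sign. This r is a description across genes, which share libraries and are not independent. PSMB9, with the largest change in each line, is among them. No r was computed without PSMB9 or over all genes.

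**Figure D1:**
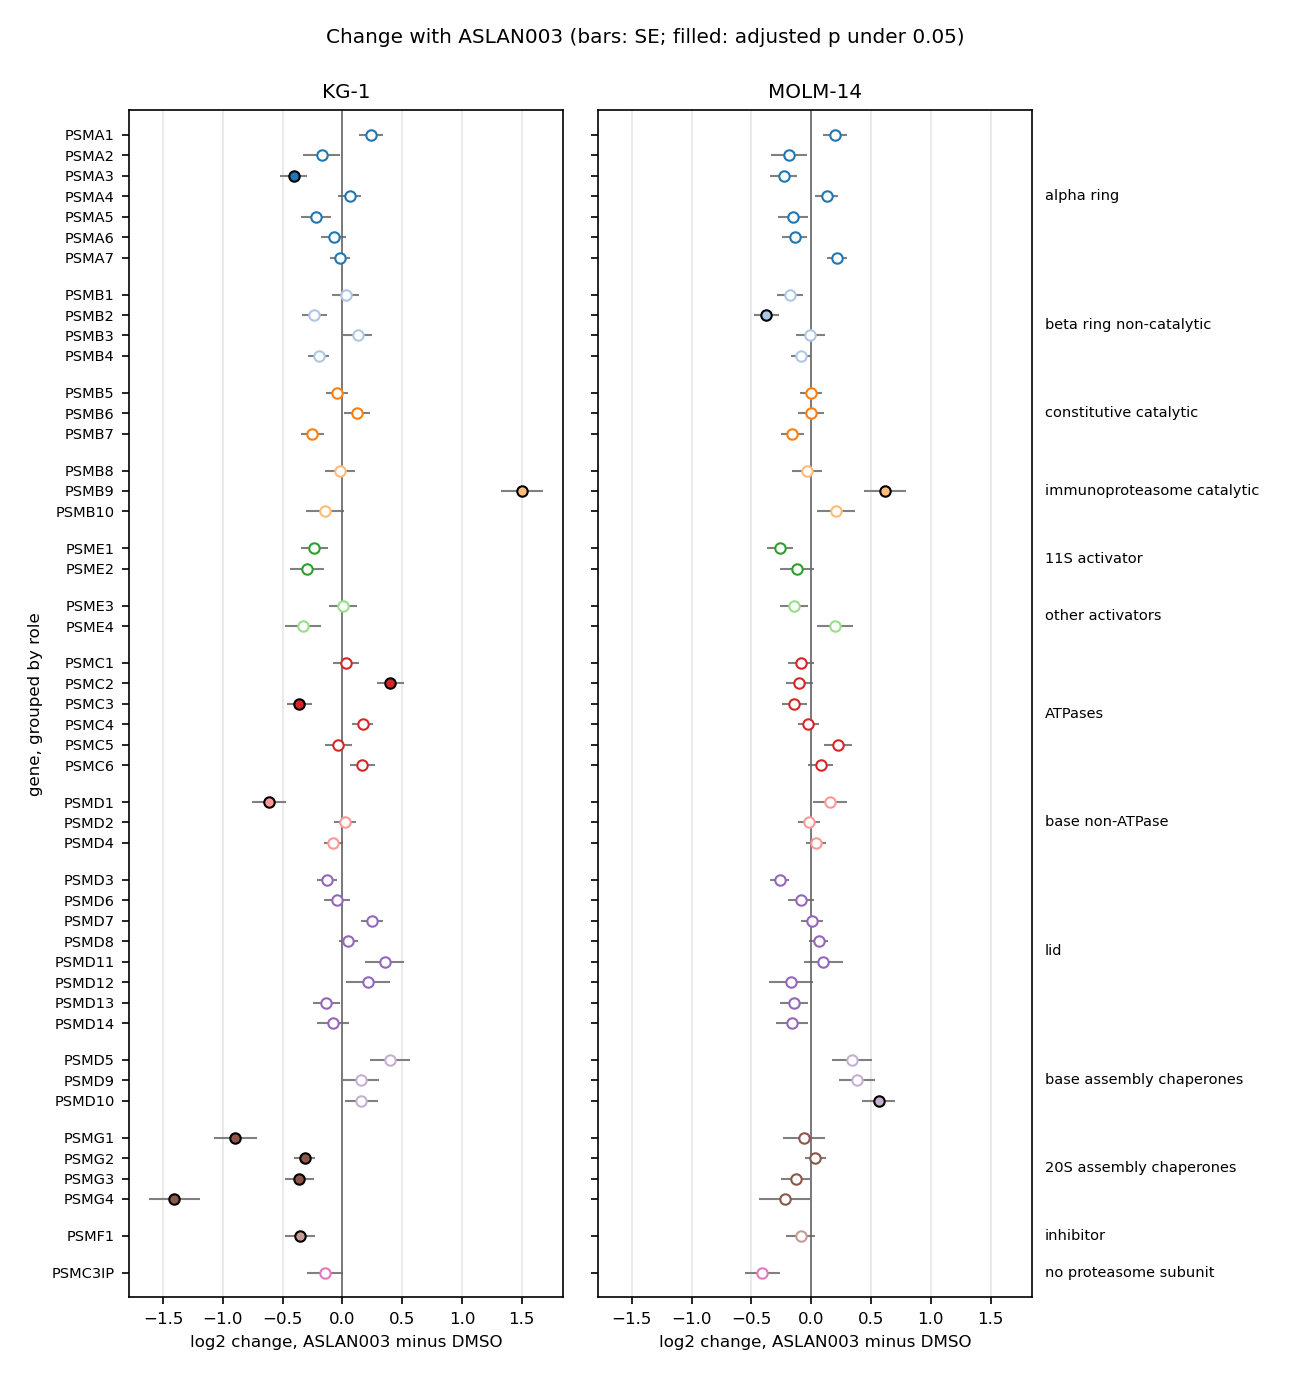
Log2 change of each of the 47 members with ASLAN003 against DMSO in KG-1 (left) and MOLM-14 (right), grouped by role, with bars for the SE of the limma fit and filled points for adjusted p under 0.05. PSMB9 lies at 1.50 in KG-1 and 0.62 in MOLM-14, and PSMG4 at -1.41 and -0.22.

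PSMB9 encodes the immunoproteasome subunit that takes the place of PSMB6 (GRCh38 chromosome 6, 32844136 to 32859585, plus strand). Its level was 43.4, 39.8 and 42.3 FPKM in KG-1 with ASLAN003, against 15.6, 13.7 and 13.1 FPKM in KG-1 with DMSO. Every treated library was above every control library. The log2 change was 1.50 (SE 0.18, limma adjusted p = 3.93e-05), a fold of 2.84, and it stayed called under all settings tried and without any single library (adjusted p 4e-08 to 0.000395).

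In MOLM-14, PSMB9 was at 80.8, 56.6 and 42.5 FPKM with ASLAN003, against 38.0, 36.0 and 38.2 FPKM with DMSO. The groups did not overlap, but replicate 1 with ASLAN003 was well above the other 2 treated libraries. The log2 change was 0.62 (SE 0.18, limma adjusted p = 0.0377). Without MOLM-14 ASLAN003 replicate 1 it was 0.38 (adjusted p = 0.0766), and without MOLM-14 ASLAN003 replicate 3 it was 0.84 (adjusted p = 0.00347). The call was lost without any 1 of the 11 libraries other than that replicate 3 and under 6 other settings, among them median centring and quantile normalization. Over all alternatives the adjusted p ranged from 0.00347 to 0.172.

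The change in PSMB9 was larger in KG-1 than in MOLM-14 by 0.89 on the log2 scale (SE 0.25, limma adjusted p = 0.0427). In this test of the difference between the lines, 1 member was called higher and 2 lower, 6.38% of the members against 9.94% of all genes (5.05% higher, 4.89% lower). The PSMB9 difference was 1.12 without MOLM-14 ASLAN003 replicate 1 (adjusted p = 0.00144), and the call was lost without any 1 of the other 11 libraries and under 2 other settings (adjusted p up to 0.0991).

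None of the other 4 immunoproteasome genes was called by limma in either line, and at an unadjusted p under 0.05 there were 0 of them in KG-1 and 1 in MOLM-14. PSMB8, which takes the place of PSMB5, was at 94.9, 85.7 and 94.9 FPKM in KG-1 with ASLAN003, against 97.8, 94.9 and 86.3 FPKM in KG-1 with DMSO. In MOLM-14, PSMB8 was at 116, 168 and 137 FPKM with ASLAN003, against 155, 143 and 129 FPKM with DMSO. The groups overlapped in both lines, and the log2 changes were -0.02 (SE 0.13) in KG-1 and -0.03 (SE 0.13) in MOLM-14.

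PSMB10, which takes the place of PSMB7, was at 62.8, 61.4 and 82.6 FPKM in KG-1 with ASLAN003, against 79.6, 82.4 and 65.6 FPKM in KG-1 with DMSO. In MOLM-14, PSMB10 was at 184, 180 and 123 FPKM with ASLAN003, against 140, 144 and 131 FPKM with DMSO. Both comparisons overlapped. The log2 changes were -0.14 (SE 0.16) in KG-1 and 0.21 (SE 0.16) in MOLM-14, and neither was called.

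PSME1, 1 of the 2 genes of the activator ring, was at 133, 131 and 155 FPKM in KG-1 with ASLAN003, against 170, 159 and 164 FPKM in KG-1 with DMSO. In MOLM-14, PSME1 was at 123, 159 and 163 FPKM with ASLAN003, against 173, 179 and 178 FPKM with DMSO. In both lines all treated libraries lay below the control libraries, yet the log2 changes of -0.23 and -0.26 did not pass (limma adjusted p = 0.121 and 0.144). The KG-1 fall was called under 5 alternatives (adjusted p down to 0.00309), among them without MOLM-14 ASLAN003 replicate 1 (adjusted p = 0.0281), and the MOLM-14 fall after median centring (adjusted p = 0.0491). PSME2, its partner, was at 126, 111 and 114 FPKM in KG-1 with ASLAN003, against 160, 151 and 124 FPKM in KG-1 with DMSO. In MOLM-14, PSME2 was at 118, 177 and 159 FPKM with ASLAN003, against 150, 170 and 166 FPKM with DMSO. Its groups overlapped in both lines, and neither change was called (limma adjusted p = 0.125 and 0.647), though the KG-1 one was under 4 alternatives (adjusted p down to 0.0205), among them without MOLM-14 ASLAN003 replicate 1 (adjusted p = 0.0341).

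None of the 3 constitutive catalytic subunits was called by limma in either line (at an unadjusted p under 0.05, 1 in KG-1 and 0 in MOLM-14). PSMB5, the chymotrypsin-like subunit, was at 101, 90.3 and 95.5 FPKM in KG-1 with ASLAN003, against 104, 94.0 and 98.1 FPKM in KG-1 with DMSO. In MOLM-14, PSMB5 was at 63.2, 71.9 and 70.0 FPKM with ASLAN003, against 72.9, 64.7 and 67.2 FPKM with DMSO. Treated and control libraries overlapped in both lines.

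PSMB6, the caspase-like subunit, was at 98.6, 97.1 and 107 FPKM in KG-1 with ASLAN003, against 98.3, 91.5 and 88.2 FPKM in KG-1 with DMSO. In MOLM-14, PSMB6 was at 120, 136 and 101 FPKM with ASLAN003, against 109, 125 and 121 FPKM with DMSO. These groups overlapped too. PSMB7, the trypsin-like subunit, was at 105, 92.8 and 99.7 FPKM in KG-1 with ASLAN003, against 114, 121 and 120 FPKM in KG-1 with DMSO. In MOLM-14, PSMB7 was at 111, 140 and 125 FPKM with ASLAN003, against 136, 146 and 136 FPKM with DMSO. The KG-1 groups were apart, with a log2 change of -0.25 that missed the threshold (limma adjusted p = 0.0621), and the MOLM-14 groups overlapped. The KG-1 fall of PSMB7 was called under 7 alternatives (adjusted p down to 0.00933), among them median centring, quantile normalization and without MOLM-14 ASLAN003 replicate 1 (adjusted p = 0.0216).

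**Figure D2:**
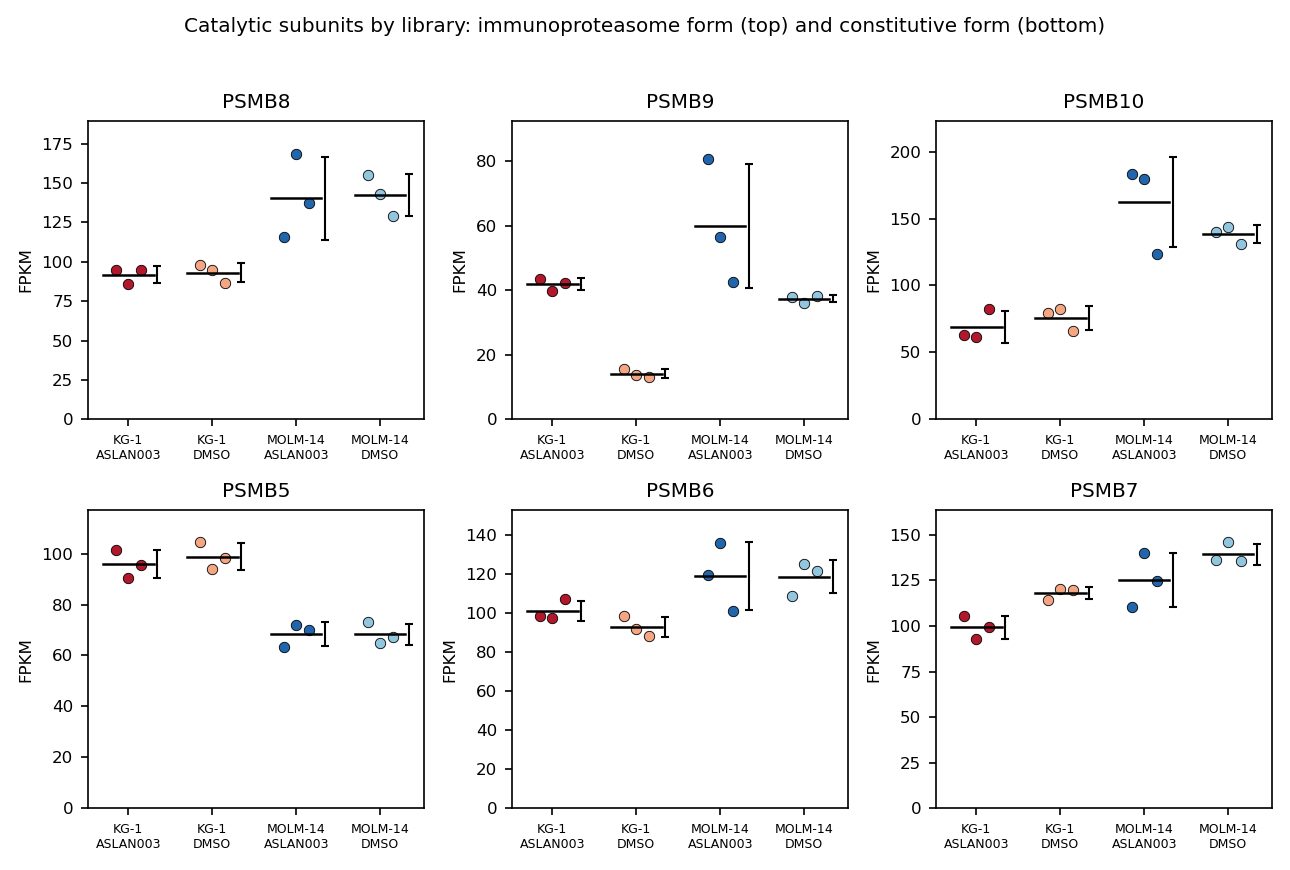
FPKM of the 3 immunoproteasome catalytic genes (top) and of the constitutive genes they replace (bottom) in each of the 12 libraries, with a line for the group mean and a bar for the SD (n = 3). PSMB9 is the panel in which treated and control libraries separate in both lines.

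A ratio of 2 genes within a library does not depend on how the library was scaled. PSMB9 made up 29.3% ± 1.13 of the summed FPKM of PSMB9 and PSMB6 in KG-1 with ASLAN003, against 13.2% ± 0.431 in KG-1 with DMSO (SD, n = 3 each). In MOLM-14, the share was 33.1% ± 6.24 with ASLAN003 and 24.1% ± 1.75 with DMSO (SD, n = 3 each). Both lines reached the smallest two-sided p that an exact permutation test of 3 against 3 can give, p = 0.1, or 0.16 after Benjamini-Hochberg adjustment over 16 such tests. No comparison of this size can pass the 0.05 threshold. In MOLM-14 the difference was 9.05 percentage points, and without MOLM-14 ASLAN003 replicate 1 it was 5.45 points.

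For the other pairs the shares moved less. PSMB8 made up 49.0% ± 0.78 of the pair with PSMB5 in KG-1 with ASLAN003 and 48.5% ± 1.73 in KG-1 with DMSO. In MOLM-14 it made up 67.0% ± 2.76 with ASLAN003 and 67.5% ± 1.64 with DMSO. PSMB10 made up 40.8% ± 4.08 of the pair with PSMB7 in KG-1 with ASLAN003 and 39.0% ± 3.12 in KG-1 with DMSO, and 56.1% ± 6.33 in MOLM-14 with ASLAN003 against 49.8% ± 0.799 in MOLM-14 with DMSO. Exact permutation tests of these 2 pairs gave p = 0.2 to 0.9 (two-sided, 3 against 3 libraries).

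Within the immunoproteasome, PSMB9 was the subunit with the lowest level in all 4 groups. Its ratio to PSMB8 was 0.456 ± 0.00956 in KG-1 with ASLAN003 and 0.152 ± 0.00787 in KG-1 with DMSO, and 0.448 ± 0.217 in MOLM-14 with ASLAN003 and 0.264 ± 0.0279 in MOLM-14 with DMSO (SD, n = 3 each). The ratio in MOLM-14 with ASLAN003 was 0.698 in replicate 1 but 0.336 and 0.310 in the others.

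**Figure D3:**
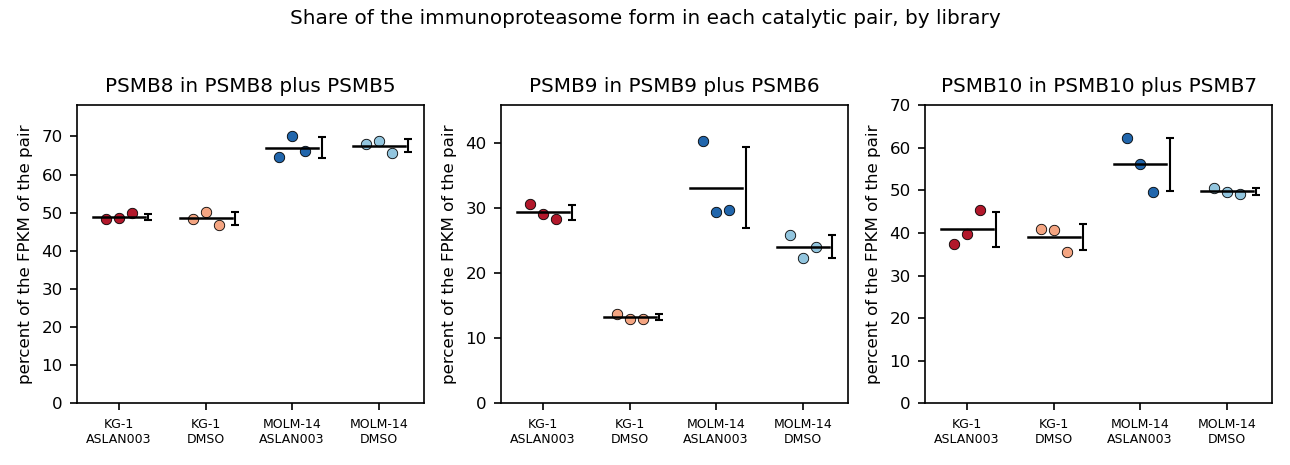
Share of the immunoproteasome form in the summed FPKM of each catalytic pair, in percent, for the 12 libraries, with the group mean and the SD (n = 3). The PSMB9 share is 29.3% in KG-1 with ASLAN003 and 13.2% in KG-1 with DMSO, and the PSMB8 share is nearly level within each line.

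PSMB9 lies beside PSMB8 and TAP1, a subunit of the peptide transporter of the MHC class I route, in a dense part of the MHC. In GENCODE 29, the PSMB9 annotation spans all 8770 bases of TAP1, which lies on the other strand. It also shares 568 bases with PSMB8 on the other strand and 2360 bases with PSMB8-AS1 on its own strand. The RefSeq start used for the PSMB9 promoter lies past the end of TAP1 (32853978), and from that start PSMB9 overlaps none of these genes. Which start the counting used is not stated in the sources used here. The kit keeps strand, but no source used here says whether the counting did, so reads of these genes may be mixed. TAP1, named here for its place after its values were seen, was at 14.4 to 21.2 FPKM in KG-1 with ASLAN003 and 9.30 to 11.5 FPKM in KG-1 with DMSO, a log2 change of 0.64 (limma adjusted p = 0.013). In MOLM-14 it was at 19.2 to 27.3 FPKM with ASLAN003 and 12.4 to 15.7 FPKM with DMSO, also a log2 change of 0.64 (limma adjusted p = 0.0311). PSMB9 and TAP1 were both called higher with ASLAN003, and PSMB8 was not called. PSMB8-AS1 was at 7.40 to 11.1 FPKM in KG-1 with ASLAN003 and 7.72 to 11.04 FPKM in KG-1 with DMSO, and was not called in either line. In MOLM-14, PSMB8-AS1 was at 21.3 to 40.1 FPKM with ASLAN003 and 18.1 to 21.3 FPKM with DMSO, and its highest value was in ASLAN003 replicate 1, the library with the most PSMB9. The part of these neighbours in the PSMB9 values was not tested.

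The chaperones PSMG1, PSMG2, PSMG3 and PSMG4 help assemble the ring of alpha subunits, PSMG1 paired with PSMG2 and PSMG3 with PSMG4. All 4 were called lower in KG-1, with a median log2 change of -0.63. Their changes stayed below 0 under every scaling tried. In MOLM-14 none was called by limma (0 of 4 also at an unadjusted p under 0.05), and their log2 changes lay between -0.22 and 0.04.

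PSMG4 was at 15.1, 13.3 and 19.7 FPKM in KG-1 with ASLAN003, against 47.3, 40.8 and 42.9 FPKM in KG-1 with DMSO. The groups were far apart. The log2 change was -1.41 (SE 0.21, limma adjusted p = 0.000276), a fold of 0.377, the largest fall among the members. In MOLM-14, PSMG4 was at 14.9, 19.1 and 26.2 FPKM with ASLAN003, against 26.6, 26.3 and 17.3 FPKM with DMSO, and the groups overlapped. The change in KG-1 was lower than that in MOLM-14 by -1.19 on the log2 scale (SE 0.30, limma adjusted p = 0.0275). That difference lost its call when any 1 of 6 libraries was left out (KG-1 ASLAN003 1 or 2, any KG-1 DMSO library, or MOLM-14 DMSO 3, adjusted p up to 0.0748).

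PSMG1 was at 43.7, 45.0 and 41.8 FPKM in KG-1 with ASLAN003, against 82.6, 83.5 and 79.0 FPKM in KG-1 with DMSO. The groups were apart, and the log2 change was -0.89 (SE 0.18, limma adjusted p = 0.00182), a fold of 0.538. In MOLM-14, PSMG1 was at 37.4, 65.7 and 66.5 FPKM with ASLAN003, against 51.9, 57.9 and 62.2 FPKM with DMSO. Replicate 1 lay below and the other 2 treated libraries above all MOLM-14 controls. The difference between the lines was -0.83 and just missed the threshold (limma adjusted p = 0.0539). Without MOLM-14 ASLAN003 replicate 1 it was -1.10 and called (adjusted p = 0.000281), and it was also called under 5 other alternatives, among them the replicate block (adjusted p = 0.0497).

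PSMG2 was at 45.8 to 53.9 FPKM in KG-1 with ASLAN003 and 61.8 to 63.8 FPKM in KG-1 with DMSO, a log2 change of -0.32 (limma adjusted p = 0.0165). PSMG3 was at 47.9 to 51.3 FPKM in KG-1 with ASLAN003 and 60.2 to 68.2 FPKM in KG-1 with DMSO, a log2 change of -0.36 (limma adjusted p = 0.0377). These calls are less firm than those of PSMG1 and PSMG4. The PSMG2 call was lost without KG-1 ASLAN003 1, KG-1 DMSO 1 or KG-1 DMSO 3, and the PSMG3 call without any 1 of the 6 KG-1 libraries (adjusted p up to 0.0812 and 0.127). Both were lost after the rescaling (adjusted p = 0.2 and 0.184), and PSMG3 also with no trend and no robust estimation. PSMG3 overlaps PSMG3-AS1, which was at most 1.02 FPKM in any KG-1 library. PSMG2 overlaps CEP76 on the other strand over 40945 bases, and the part of CEP76 in its values was not tested.

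**Figure D4:**
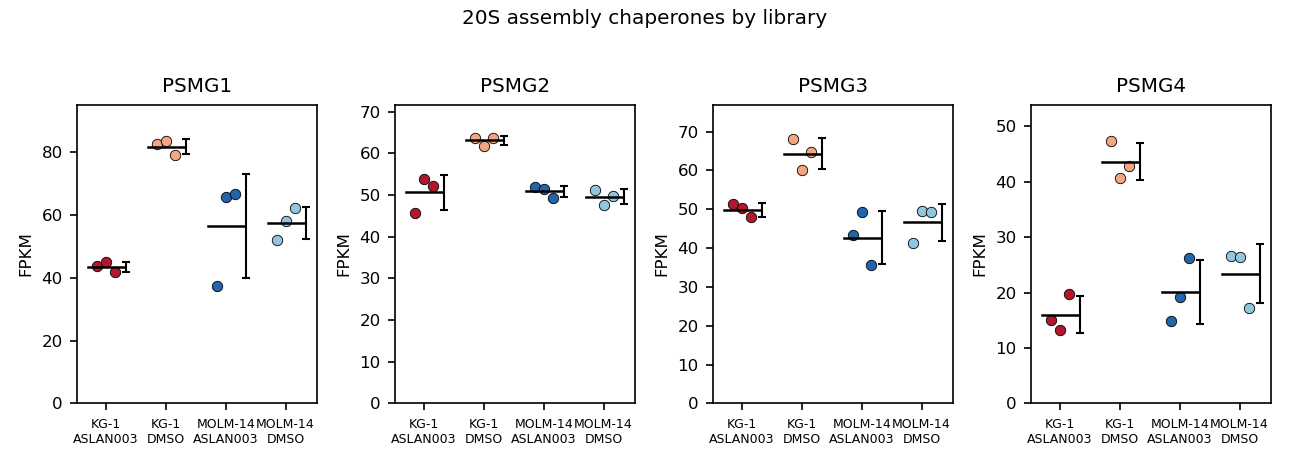
FPKM of the 4 core assembly chaperones in each of the 12 libraries, with the group mean and the SD (n = 3). In KG-1 all libraries with ASLAN003 lie below those with DMSO in each panel, and in MOLM-14 the groups overlap.

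Among the 14 constitutive core genes, PSMA3 was the only one called in KG-1 (log2 change -0.41, limma adjusted p = 0.0145) and PSMB2 the only one called in MOLM-14. The shares of all genes called were 33.7% in KG-1 and 13.0% in MOLM-14. PSMA3 is an alpha subunit, and its call was lost without KG-1 DMSO 2 (adjusted p = 0.0519) and after the same rescaling (adjusted p = 0.0762). The gene overlaps PSMA3-AS1 on the other strand, which rose in KG-1 by 0.45 on the log2 scale (limma adjusted p = 0.046). Without MOLM-14 ASLAN003 replicate 1, PSMA1 was also called higher (0.24, adjusted p = 0.0452) and PSMB4 lower (-0.20, adjusted p = 0.043) in KG-1. The 13 genes other than PSMA3 had log2 changes of at most 0.25 in size in KG-1, and the median over the 14 was -0.06 in KG-1 and -0.11 in MOLM-14.

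PSMB2, a beta subunit without catalytic activity, was at 46.2, 49.9 and 43.6 FPKM in MOLM-14 with ASLAN003, against 61.5, 62.2 and 58.2 FPKM in MOLM-14 with DMSO. All treated libraries were below the controls, and the log2 change was -0.38 (SE 0.10, limma adjusted p = 0.0311). In KG-1, PSMB2 was at 63.2, 66.4 and 53.6 FPKM with ASLAN003, against 75.4, 73.4 and 66.8 FPKM with DMSO. These groups were apart as well, with a log2 change of -0.24 that did not pass (limma adjusted p = 0.0982) but was called under 3 alternatives (adjusted p down to 0.0149). The MOLM-14 call was lost without any 1 of 6 libraries (MOLM-14 ASLAN003 1 or 3, any MOLM-14 DMSO library, or KG-1 DMSO 2). It was also lost under 4 other settings (adjusted p up to 0.143). Without MOLM-14 ASLAN003 replicate 1, the log2 change of PSMB2 in MOLM-14 was -0.37 (limma adjusted p = 0.0501).

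Of the 17 regulatory particle genes, 1 was called higher and 2 lower in KG-1 and none in MOLM-14 by limma (1 of 17 at an unadjusted p under 0.05 in MOLM-14). Over all genes, 33.7% were called in KG-1 and 13.0% in MOLM-14. The median log2 change of the 17 was 0.02 in KG-1 and -0.02 in MOLM-14. None of the 8 lid genes, which include the deubiquitinase PSMD14, was called in either line (at an unadjusted p under 0.05, 2 in KG-1 and 1 in MOLM-14). Some were close to the threshold. PSMD7 had a log2 change of 0.25 in KG-1 (limma adjusted p = 0.0506) and was called higher under 9 alternatives (adjusted p down to 0.00756), among them without MOLM-14 ASLAN003 replicate 1 (adjusted p = 0.0353). PSMD11, at 0.36 in KG-1, was called higher under 3 alternatives (adjusted p down to 0.00605). PSMD3 had a log2 change of -0.26 in MOLM-14 (limma adjusted p = 0.0517) and was called lower there under 5 alternatives (adjusted p down to 0.0092), and in KG-1 after median centring (adjusted p = 0.0399).

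PSMD1, a large scaffold of the base that docks ubiquitin receptors, was at 30.9, 36.1 and 36.5 FPKM in KG-1 with ASLAN003, against 50.8, 56.6 and 52.0 FPKM in KG-1 with DMSO. The groups were apart, and the log2 change was -0.61 (SE 0.14, limma adjusted p = 0.00561). In MOLM-14, PSMD1 was at 55.5, 42.0 and 52.2 FPKM with ASLAN003, against 35.8, 49.2 and 49.4 FPKM with DMSO, with overlapping groups. The change in KG-1 was lower than that in MOLM-14 by -0.77 (SE 0.20, limma adjusted p = 0.0318), a call lost after the rescaling (adjusted p = 0.0501) and without any 1 of 7 libraries (KG-1 ASLAN003 1 or 2, any KG-1 DMSO library, MOLM-14 ASLAN003 3 or MOLM-14 DMSO 1, adjusted p up to 0.0868).

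PSMC2, an ATPase of the base, was at 105, 112 and 94.2 FPKM in KG-1 with ASLAN003, against 78.2, 86.5 and 70.1 FPKM in KG-1 with DMSO. Treated libraries were all above the controls, and the log2 change was 0.40 (SE 0.11, limma adjusted p = 0.0148). In MOLM-14, PSMC2 was at 43.2, 52.7 and 43.1 FPKM with ASLAN003, against 49.8, 48.8 and 50.0 FPKM with DMSO, with overlap. The KG-1 call was lost without KG-1 ASLAN003 2 or KG-1 DMSO 3 and after median centring (adjusted p up to 0.0694). PSMC3, another ATPase, was called lower in KG-1, with a log2 change of -0.36 (limma adjusted p = 0.0182). That call was lost without KG-1 ASLAN003 3, KG-1 DMSO 1 or KG-1 DMSO 2 and after the rescaling (adjusted p up to 0.157).

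The chaperones of the regulatory particle base had log2 changes above 0 in both lines, and 1 of the 3 was called. PSMD10, the gene called and also known as gankyrin, was at 31.4, 29.0 and 28.9 FPKM in MOLM-14 with ASLAN003, against 24.3, 20.1 and 15.8 FPKM in MOLM-14 with DMSO. The groups were apart, and the log2 change was 0.56 (SE 0.14, limma adjusted p = 0.0176). In KG-1, PSMD10 was at 49.4, 56.4 and 52.5 FPKM with ASLAN003, against 50.7, 45.8 and 45.0 FPKM with DMSO, with overlap and a log2 change of 0.16. The MOLM-14 call was lost without MOLM-14 DMSO 3 (adjusted p = 0.0565) and under 4 other settings, among them median centring, quantile normalization and library weights (adjusted p up to 0.129). PSMD5 and PSMD9, the other chaperones of the base, had log2 changes of 0.40 and 0.15 in KG-1 and 0.34 and 0.39 in MOLM-14, none of them called. PSMD5 in KG-1 was called under 4 alternatives (adjusted p down to 0.00331) and PSMD9 in MOLM-14 after the rescaling (adjusted p = 0.0418).

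The inhibitor PSMF1 was called lower in KG-1, at 40.5 to 46.8 FPKM with ASLAN003 against 47.0 to 63.6 FPKM with DMSO (log2 change -0.36, limma adjusted p = 0.0427). The call was lost without KG-1 ASLAN003 1, 2 or 3, KG-1 DMSO 1 or 2, or MOLM-14 DMSO 2, and under 2 other settings (adjusted p up to 0.217). PSMC3IP, the recombination factor, had log2 changes of -0.15 in KG-1 and -0.41 in MOLM-14 and was not called, except in MOLM-14 under 2 alternatives (adjusted p down to 0.0237). PSME3, the activator of the nuclear proteasome, and PSME4, an activator linked to histone turnover, had log2 changes of 0.00 and -0.33 in KG-1 and -0.14 and 0.20 in MOLM-14, and neither was called, except PSME4 in KG-1 under 4 alternatives (adjusted p down to 0.0245).

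In KG-1, the 14 constitutive core genes summed to 2382 to 2544 FPKM with ASLAN003 and 2530 to 2622 FPKM with DMSO, and the 17 regulatory genes to 1689 to 1774 FPKM with ASLAN003 and 1677 to 1745 FPKM with DMSO. In MOLM-14, the constitutive sum was 1922 to 2311 FPKM with ASLAN003 and 2135 to 2265 FPKM with DMSO, and the regulatory sum 1562 to 1677 FPKM with ASLAN003 and 1560 to 1662 FPKM with DMSO. All 4 of these comparisons overlapped. The 5 immunoproteasome genes summed to 429.7 to 489.2 FPKM in KG-1 with ASLAN003 and 453.6 to 522.9 FPKM in KG-1 with DMSO, and to 621.1 to 740.3 FPKM in MOLM-14 with ASLAN003 and 641.5 to 672.0 FPKM in MOLM-14 with DMSO. These groups overlapped as well.

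As a share of all listed FPKM, the constitutive core made up 0.365% ± 0.0178 in KG-1 with ASLAN003 and 0.336% ± 0.00553 in KG-1 with DMSO (SD, n = 3 each, exact permutation p = 0.1, the smallest possible, two-sided). In MOLM-14 it made up 0.276% ± 0.0138 with ASLAN003 and 0.262% ± 0.00599 with DMSO (exact permutation p = 0.3, two-sided). These differences turned in sign when those transcripts and ribosomal protein genes were left out of the total, to -0.0353 points in KG-1 and -0.028 points in MOLM-14. The sign of the summed share depends on the total used.

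KG-1 with DMSO and MOLM-14 with DMSO differed in 24 of the 47 members by limma, 15 higher and 9 lower in KG-1, which is 51.1% of the members against 49.2% of all genes (27.1% higher, 22.1% lower). After the rescaling, 20 were higher and 6 lower, while 50.2% of all genes were called. Of those calls over all genes, 65.8% were higher in KG-1, against 55.1% as reported. Groups did not overlap for 31 members, 19 above and 12 below in KG-1, against 63.3% of all genes (34.3% above, 29.0% below). All 3 immunoproteasome catalytic genes were lower in KG-1, PSMB9 by -1.35 on the log2 scale (SE 0.18, limma adjusted p = 4.21e-05), PSMB10 by -0.86 (SE 0.16) and PSMB8 by -0.61 (SE 0.13). The groups did not overlap for any of the 3. PSME1 and PSME2 differed by -0.10 and -0.16 and were not called. PSMB5 was higher in KG-1 by 0.53 and PSMB6 lower by -0.35. The PSMB6 call was lost without KG-1 DMSO 2 or 3 or MOLM-14 DMSO 2 or 3 and after the rescaling (adjusted p up to 0.12).

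The immunoproteasome forms made up 37.1% ± 1.81 of the summed FPKM of the 6 catalytic genes in KG-1 with DMSO, against 49.4% ± 1.67 in MOLM-14 with DMSO (SD, n = 3 each, exact permutation p = 0.1, the smallest possible, two-sided). With ASLAN003 they made up 40.6% ± 1.31 in KG-1 and 53.6% ± 2.91 in MOLM-14 (exact permutation p = 0.1, two-sided). The lines come from different donors, so a difference between them cannot be told apart from any other feature of the donors.

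Outside the immunoproteasome, the highest and the lowest difference between the DMSO groups belonged to chaperones of the base. PSMD10 was higher in KG-1 by 1.21 (SE 0.14, limma adjusted p = 1.13e-05), while PSMD5 and PSMD9 were lower by -1.03 and -0.79. All 4 core assembly chaperones were higher in KG-1 with DMSO than in MOLM-14 with DMSO, by 0.34 to 0.89. With ASLAN003 none of the 4 was called between the lines (0 of 4 also at an unadjusted p under 0.05), against 53.1% of all genes called. The differences of the 4 lay between -0.32 and 0.23. Without MOLM-14 ASLAN003 replicate 1 the PSMG1 difference was -0.59 and called (adjusted p = 2e-04), as it was with weighted libraries (-0.45, adjusted p = 0.0136), and PSMG3 was called higher under 2 alternatives (adjusted p down to 0.0135). The PSMG1 call between the DMSO groups was lost without any 1 of 5 libraries (any KG-1 DMSO library, MOLM-14 DMSO 1 or 2) and after median centring or quantile normalization (adjusted p up to 0.0981).

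PSMD5 overlaps the antisense gene PSMD5-AS1 over 18157 bases, and PSMD5-AS1 was also lower in KG-1 with DMSO, at 4.75 to 5.79 FPKM against 28.5 to 37.2 FPKM in MOLM-14 with DMSO. Reads of the pair may be mixed, which was not tested. Among subunits, PSMA7, an alpha subunit, was higher in KG-1 by 0.91 and PSMD2, a large subunit of the base, by 0.83. The activators PSME3 and PSME4 were higher by 0.49 and 0.72. None of the 8 lid genes was called between the DMSO groups (2 at an unadjusted p under 0.05), against 49.2% of all genes called. Groups overlapped for 6 of the 8, and did not overlap for 63.3% of all genes.

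With ASLAN003, 13 members were higher and 11 lower in KG-1 than in MOLM-14, 51.1% of the members against 53.1% of all genes (27.9% higher, 25.2% lower). Groups did not overlap for 24 members, 13 above and 11 below in KG-1, against 55.8% of all genes (29.3% above, 26.5% below). Without MOLM-14 ASLAN003 replicate 1, 13 were called higher and 15 lower, with PSMG1, PSME2, PSMA5, PSMB4 and PSMD8 gained and PSMB9 lost. PSMB10 was lower in KG-1 by -1.21 (SE 0.16, limma adjusted p = 3.57e-05) and PSMB8 by -0.59 (SE 0.13), while PSMB9 was lower by -0.46 with overlapping groups (limma adjusted p = 0.0433). That PSMB9 call was lost without MOLM-14 ASLAN003 replicate 1 (log2 difference -0.23, adjusted p = 0.155) and without any 1 of 10 further libraries (adjusted p 0.00218 to 0.198 over all alternatives). PSMC2 had the largest difference upward, 1.144 (SE 0.11, limma adjusted p = 2.55e-06).

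**Figure D5:**
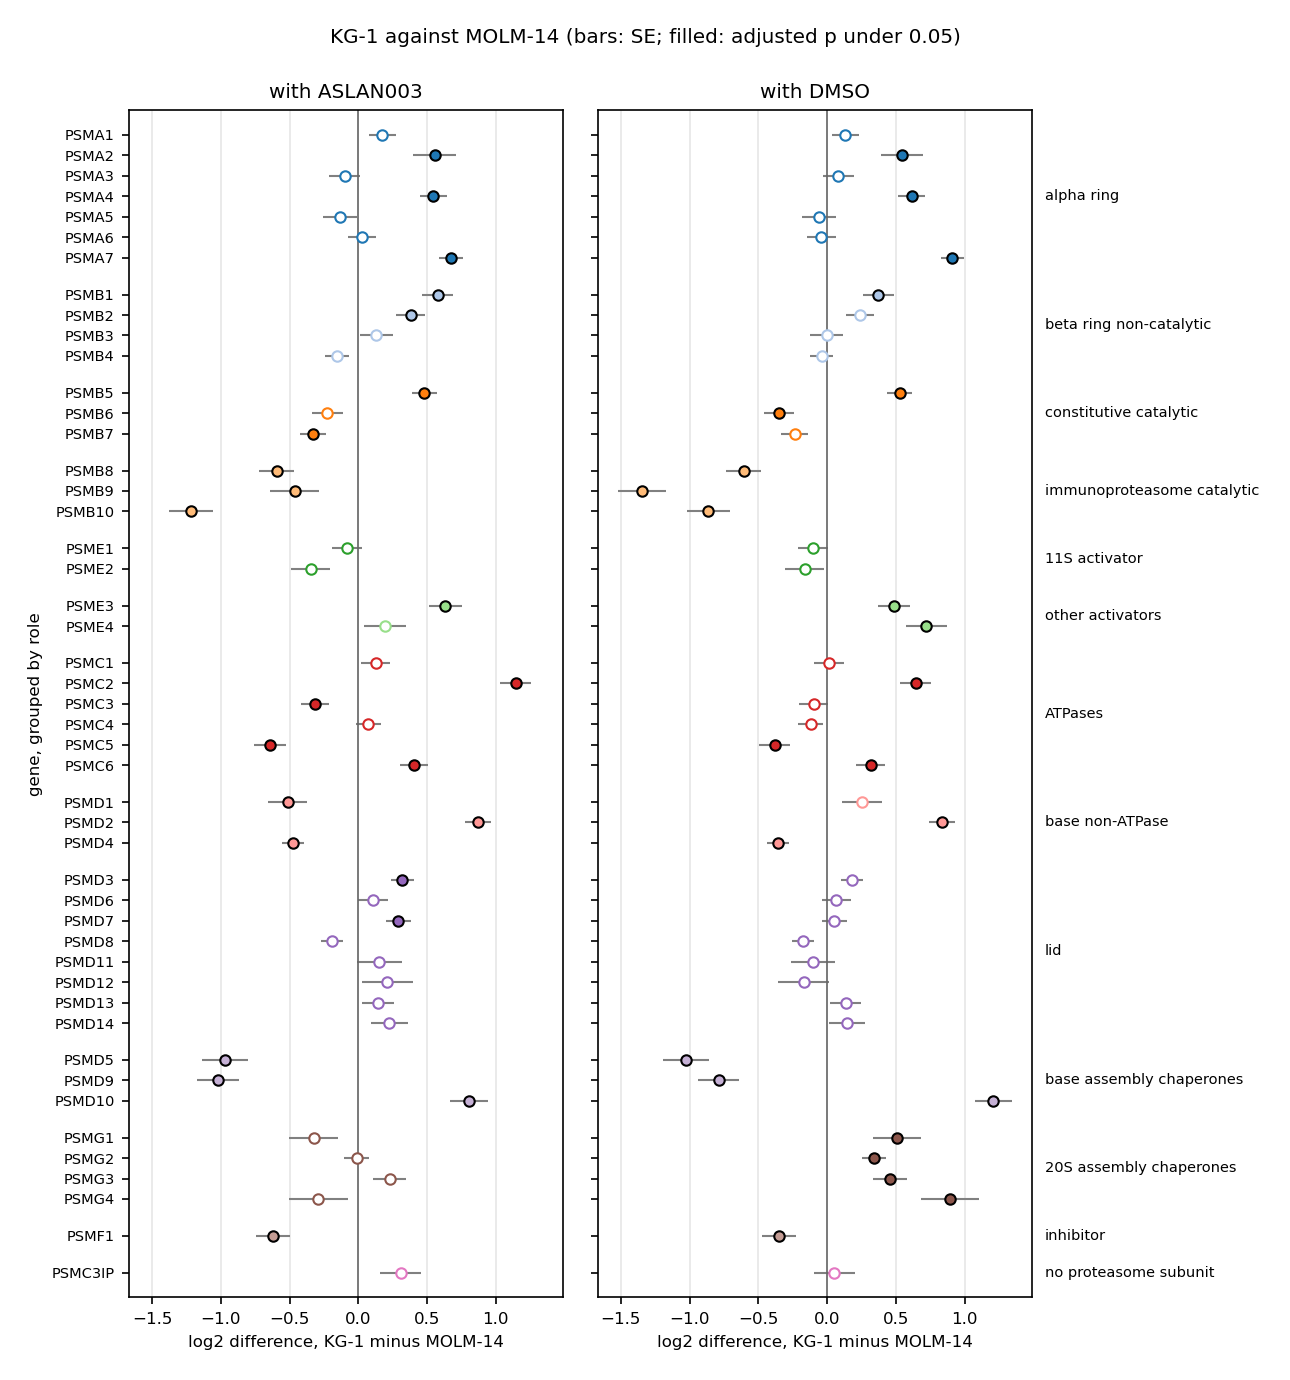
Log2 difference of each of the 47 members between KG-1 and MOLM-14, with ASLAN003 (left) and with DMSO (right), grouped by role, with bars for the SE of the limma fit and filled points for adjusted p under 0.05. The 3 immunoproteasome catalytic genes lie below 0 in both panels, and the 4 core assembly chaperones lie above 0 with DMSO.

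Genes that work with the proteasome were read from lists chosen with earlier results of these data known. The shares of all genes to read each list against were 19.4% higher and 14.3% lower in KG-1, and 9.69% higher and 3.33% lower in MOLM-14. In the MHC class I peptide route, 10 of 16 genes were called higher and 0 lower in KG-1, and 8 higher and 1 lower in MOLM-14. NLRC5, the transactivator of MHC class I genes, had a mean of 53.4 FPKM in KG-1 with ASLAN003 and 7.83 FPKM in KG-1 with DMSO, a log2 change of 2.62, against 0.84 in MOLM-14. IRF1, a transcription factor of the interferon response, had a log2 change of 1.27 in KG-1 and was not called in MOLM-14. HLA-B, a class I heavy chain, had log2 changes of 1.24 in KG-1 and 1.29 in MOLM-14. The change differed between the lines by 1.78 for NLRC5 and 1.12 for IRF1, the 2 genes of the list called in that test. ERAP1, the peptide-trimming enzyme of the endoplasmic reticulum, had log2 changes of 0.99 in KG-1 and 0.57 in MOLM-14, both called, and the class I heavy chain HLA-C had 0.89 in MOLM-14. The HLA genes are close copies of each other, so their reads may be shared.

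Of 12 subunits and partners without a PSM name, 2 were higher and 3 lower in KG-1, and 1 was higher in MOLM-14, beside the 33.7% and 13.0% of all genes called. ZFAND5, an activator of the proteasome, and AKIRIN2, which takes part in its nuclear import, had log2 changes of 0.57 and 0.36 in KG-1. The deubiquitinase UCHL5 and PITHD1, a protein that binds proteasomes, had -0.59 and -0.49. AKIRIN2 was the gene called in MOLM-14, at 0.32. PAAF1, an assembly factor of the base, was the other gene called lower in KG-1, at -0.43. In the list of the transcription factor NFE2L1, which drives subunit genes when proteasome activity falls, its partner MAFG was the 1 of 10 genes called in each line, with 1.27 in KG-1 and 0.55 in MOLM-14.

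Of 14 ubiquitin and shuttle genes, 3 were higher and 2 lower in KG-1, near the share of all genes, and 1 was higher and 2 lower in MOLM-14. UBB, a polyubiquitin gene, rose by 1.11 on the log2 scale in KG-1, and NPLOC4, a cofactor of the segregase VCP, by 0.64. UFD1L, the partner of NPLOC4, rose by 0.43 in KG-1. RPS27A, which encodes ubiquitin fused to a ribosomal protein, fell by 0.90 in KG-1 and by 0.69 in MOLM-14. In the COP9 signalosome, a complex related to the lid, 0 of 9 genes were called by limma in either line (at an unadjusted p under 0.05, 0 in KG-1 and 2 in MOLM-14). In the CCT chaperonin, CCT6A and CCT3 of 8 genes were called lower in KG-1, with log2 changes of -0.60 and -0.39, and none in MOLM-14 (4 at an unadjusted p under 0.05).

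Of the 10 calls in KG-1, those of PSMB9, PSMG4, PSMG1 and PSMD1 were kept under every setting tried and without any single library. The other 6 were lost under at least 1 alternative. Calls were gained too, by 13 members in KG-1 and 7 in MOLM-14 under at least 1 alternative, and without MOLM-14 ASLAN003 replicate 1 there were 4 higher and 12 lower in KG-1 and 1 higher and 0 lower in MOLM-14. Median centring moved the median log2 change of all genes by -0.12 in KG-1 and -0.15 in MOLM-14, and gave 1 member higher and 15 lower in KG-1. The rescaling moved it by 0.13 in KG-1 and 0.12 in MOLM-14, and gave 8 members higher and 3 lower in KG-1. Over all genes, 57.5% of the KG-1 calls were higher, against 42.7% after centring, 46.1% after quantile normalization and 72.7% after the rescaling. In MOLM-14, 74.5% of the calls were higher, against 44.1%, 57.1% and 88.1% under the same 3 settings.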

How the data were processed

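RNA was sequenced from 12 libraries, 3 for each of 4 groups. Per the labels' protocols, libraries were made from 1 ug of total RNA with a stranded total RNA kit. Per the submitters' processing notes, the tools were RSEM (version 1.2.25), STAR (version 2.4.2a) and bcl2fastq (version 2.17.1.14), and the build GRCh38. The gene annotation and the strand setting are not given in the sources used here. Values of log2(FPKM + 1) were deposited by the authors for 13881 genes. They were returned to FPKM, and log2(FPKM + 1) was tested with limma 3.58.1 in R 4.3.3 for the 13353 genes that reached 1 FPKM in 3 or more libraries. The fit had 4 group means, with trend and robust estimation, and p-values were adjusted by Benjamini-Hochberg over all genes tested. Fold changes are on this scale and understate changes of low genes.

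Read counts were not used here, and depth was estimated from the spacing of low values, 18080000 to 18960000 fragments per library, with 79.4% to 84.8% of the 76 to 107 low values used lying within 0.15 fragment of a whole number, against 30% for evenly spread values. No count test was run. Positions came from GENCODE 29, which holds 99.3% of the gene IDs, and promoters from RefSeq.

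Members and gene lists were chosen with earlier results of these data known. Values in every library are given for the 5 immunoproteasome genes, PSMB5, PSMB6, PSMB7 and, per treatment comparison, up to 3 called members with the largest rise and fall, and of each list up to 4 called genes per treatment comparison are named. ERAP1 in MOLM-14, AKIRIN2 and UFD1L in KG-1 and PSMB8-AS1 and the other antisense genes were added after their values were seen. Alternatives were another pseudocount, other filters, other scalings, each line alone, no trend, library weights, a replicate block and each library left out. The fit was checked on simulated data. Results for some genes of the partner lists are not reported here.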

Additional observations from a re-analysis of the deposited data

Results flagged for a closer look

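The change with ASLAN003 differed between the lines for 3 members, by a test of the difference itself in limma with Benjamini-Hochberg adjustment over all genes. PSMB9 changed more in KG-1 than in MOLM-14, by 0.89 on the log2 scale (adjusted p = 0.0427), and every library with ASLAN003 was above every DMSO library in both lines. PSMG4 fell in KG-1 and was not called in MOLM-14, with a difference of -1.19 (adjusted p = 0.0275). PSMD1 had a difference of -0.77 (adjusted p = 0.0318), lower with ASLAN003 in KG-1 and overlapping in MOLM-14. Each of the 3 calls was lost without at least 6 of the 12 libraries in turn.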

How the results depend on the processing

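Each count below is of the 47 members. In KG-1, 2 were higher and 8 lower as reported, 1 and 15 after median centring, 8 and 3 after the rescaling to a total without mitochondrial, ribosomal, small and histone RNAs, 5 and 13 with each line fitted alone, and 7 and 14 with weighted libraries. Without 1 library, 1 to 4 were higher and 4 to 12 lower. In MOLM-14, 2 were higher and 1 lower as reported, 0 and 4 after centring, 0 and 3 after quantile normalization, 6 and 0 after the rescaling, 1 and 2 when ribosomal protein genes were also left out, 0 and 0 with the line alone or weighted libraries, and 1 and 0 with no trend. The lower count was 2 with a pseudocount of 0.1 or no filter. Without 1 library, 0 to 2 were higher and 0 to 1 lower.

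For the difference between the lines, 1 was higher as reported, 2 after quantile normalization, with weighted libraries or with the replicate block, and 0 after the rescaling or with no trend. Without 1 library, 0 to 1 were higher and 0 to 3 lower. Between the ASLAN003 groups, the rescaling gave 22 higher and 7 lower, against 13 and 11. Over all genes, it called 54.4%, and 63.3% of these calls were higher in KG-1, against 52.5% as reported.

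With the other total, the summed share turned in sign with ASLAN003, to -0.0353 points (constitutive), -0.0101 (regulatory) and -0.00994 (immunoproteasome) in KG-1, and to -0.028, -0.0129 and -0.0034 in MOLM-14. Between the DMSO groups it was 0.066, 0.0141 and -0.0332. The cause of these shifts was not tested.

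Deviations of libraries of the same number had low correlations (r from -0.002 to 0.1 within lines). With 3 libraries in each group, this check cannot decide whether the numbers pair them. With the replicate block, 2 members were higher and 7 lower in KG-1, where the PSMG3 call was lost (adjusted p = 0.0509), and 2 higher and 1 lower in MOLM-14.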
